A study of Mus musculus with 9 samples.

Results

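A group of 10 cytokine genes that signal from skin epithelium and stroma were followed in sorted mouse skin cells lacking or carrying Flg, the gene of filaggrin. They were Il33, Tslp, Il1a, Il1b, Il1rn, Il18, Il6, Csf1, Il34 and Il15, taken by gene symbol, which makes 10 of the 49671 gene rows of the count table. All 10 were found, and all 10 held enough counts to be tested. The samples were 4 ko/ko and 5 wt/wt mice for Flg, a structural protein of the cornified layer. In both genotypes the cells were sorted from skin as CD45-negative, to leave out leukocytes, and CD49f-positive, for the integrin alpha-6 chain that basal keratinocytes carry. The labels give no age, sex, treatment or strain, nor how the Flg allele was made. They give each sample its own identifier, read here as separate animals, so the p-values measure the spread between these samples.

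Interleukin-33 and interleukin-1 alpha are alarmins, held inside the cell and released when epithelium is damaged, and TSLP is a secreted epithelial cytokine that acts on dendritic cells and lymphocytes. Interleukin-1 beta and interleukin-18 are made as inactive precursors that caspase-1 cuts, and Il1rn encodes the antagonist that occupies the interleukin-1 receptor without signalling. Interleukin-34, together with Csf1, feeds the receptor Csf1r and maintains macrophages and, in epidermis, Langerhans cells. Transcript counts measure neither the cutting nor the release of these proteins.

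The ko/ko libraries held 15601859 to 22526636 counts and the wt/wt libraries 19321168 to 23200440, and levels are given as CPM, the counts of a gene per 1000000 counts of its library. With the TMM factors of edgeR in that total, a single count is worth 0.0452 to 0.0577 CPM in ko/ko libraries and 0.0458 to 0.0507 CPM in wt/wt libraries. The 10 fibroblast markers summed to 35426 to 61508 CPM in ko/ko and 26863 to 62203 CPM in wt/wt, while 10 basal keratinocyte markers summed to 2197 to 3546 CPM in ko/ko and 2208 to 4315 CPM in wt/wt. Gsn, which many cell types express, and Dcn gave 79.7% to 87.01% of the fibroblast sum in ko/ko and 78.5% to 91.0% in wt/wt. The other 8 markers, split off after their values were seen, summed to 4602 to 12321 CPM in ko/ko and 2942 to 13353 CPM in wt/wt, above the basal keratinocyte sum in 8 of 9 libraries and below it in wt/wt replicate 2. Collagen and keratin transcripts were thus both present in each library, and the cytokine values cannot be assigned to keratinocytes alone. Fewer cells of a type and less RNA per cell cannot be told apart in such bulk samples. Flg itself summed to 6 counts over the ko/ko and 12 over the wt/wt libraries, too few to check the genotype. Since libraries were numbered genotype by genotype, any batch in their preparation and the genotype cannot be told apart.

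Promoter windows are shown for Il33 and Il1b, the pair with the smallest p-values between genotypes, and for Il6, the most abundant transcript of the 10. They come from RefSeq on GRCm38.p6, run from 250 bases before to 50 bases after the annotated start, and are written 5′ to 3′ on the strand of the gene. Windows were searched for 7 of the 10 genes, 10 windows in all. No window was available for Il34 and Il15, and Tslp was left out of the search. Capitals mark matches to 5 motifs searched on both strands: kappaB (GGGANTTTC), AP-1 (TGANTCA), GAS (TTCNNNGAA), ISRE (GAAANNGAA) and the TATA box (TATAAA). None of the matches overlapped another in the windows printed.
Il33 upstream start, chr19:29924863-29925162, plus strand: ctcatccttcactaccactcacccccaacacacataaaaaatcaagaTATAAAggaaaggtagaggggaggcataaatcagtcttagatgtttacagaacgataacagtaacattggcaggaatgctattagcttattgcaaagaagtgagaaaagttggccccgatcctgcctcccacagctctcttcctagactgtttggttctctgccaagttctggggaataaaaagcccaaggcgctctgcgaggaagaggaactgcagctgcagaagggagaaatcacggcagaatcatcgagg
Il33 downstream start, chr19:29945540-29945839, plus strand: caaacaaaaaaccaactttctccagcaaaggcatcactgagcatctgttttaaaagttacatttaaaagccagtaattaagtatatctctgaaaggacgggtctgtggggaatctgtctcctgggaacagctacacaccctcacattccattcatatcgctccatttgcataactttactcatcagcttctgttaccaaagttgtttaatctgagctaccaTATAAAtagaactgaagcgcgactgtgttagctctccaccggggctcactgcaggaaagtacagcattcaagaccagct
Il1b, chr2:129371090-129371389, minus strand: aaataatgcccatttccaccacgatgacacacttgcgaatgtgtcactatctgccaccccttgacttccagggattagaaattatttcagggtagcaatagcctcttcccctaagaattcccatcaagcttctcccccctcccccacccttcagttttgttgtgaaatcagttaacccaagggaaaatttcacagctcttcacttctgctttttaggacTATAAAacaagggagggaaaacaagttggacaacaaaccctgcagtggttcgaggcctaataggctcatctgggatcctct
Il6, chr5:30012864-30013163, plus strand: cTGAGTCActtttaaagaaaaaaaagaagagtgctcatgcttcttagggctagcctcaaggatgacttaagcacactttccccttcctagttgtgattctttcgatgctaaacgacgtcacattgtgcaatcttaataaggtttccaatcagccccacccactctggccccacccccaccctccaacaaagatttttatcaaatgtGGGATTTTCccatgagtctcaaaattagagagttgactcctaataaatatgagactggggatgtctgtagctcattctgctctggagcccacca

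The Il6 window held a kappaB match from 44 bases before the start and an AP-1 match from 249 bases before it. The kappaB letters stood in 1.11% and the AP-1 letters in 7.81% of 32851 windows. Both Il33 windows and the Il1b window held only TATA letters, at -29 in the downstream Il33 window, -203 in the upstream one and -31 in Il1b, against 13.6% of all windows. Of the other windows, that of Csf1 also held the kappaB letters, and that of Il1a and 1 of 3 of Il1rn held the AP-1 letters. GAS letters stood in 8.30% and ISRE letters in 8.56% of all windows, and in none of the 10. These are matches of letters, and counts per gene do not tell which Il33 start was used.

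Levels were compared between genes per length, as CPM per kilobase of exon (RPKM). Il6 was the most abundant, at 26.6 ± 9.28 RPKM in ko/ko (SD, n = 4) and 26.0 ± 15.2 RPKM in wt/wt (SD, n = 5), and led the 10 genes in 8 of 9 libraries. Il18 led in the remaining library, wt/wt replicate 1, with 13.4 RPKM against 12.4 RPKM for Il6. Below Il6 came Il18 with a mean of 9.42 RPKM over the 9 libraries, then Il33 (6.95), Csf1 (6.55), Il34 (6.49) and Il15 (6.28). These neighbours overlapped: Il18 lay above Il33 in 6 of 9 libraries, Il33 above Csf1 in 6, Csf1 above Il34 in 4 and Il34 above Il15 in 6. Il1b averaged 2.31, Tslp 1.79, Il1rn 1.27 and Il1a 0.228 RPKM, and Il1b exceeded Tslp in 3 of 9 libraries only. By group means, Il33 ranked 3 in ko/ko and 6 in wt/wt, and Il15 ranked 6 in ko/ko and 3 in wt/wt.

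**Figure D1:**
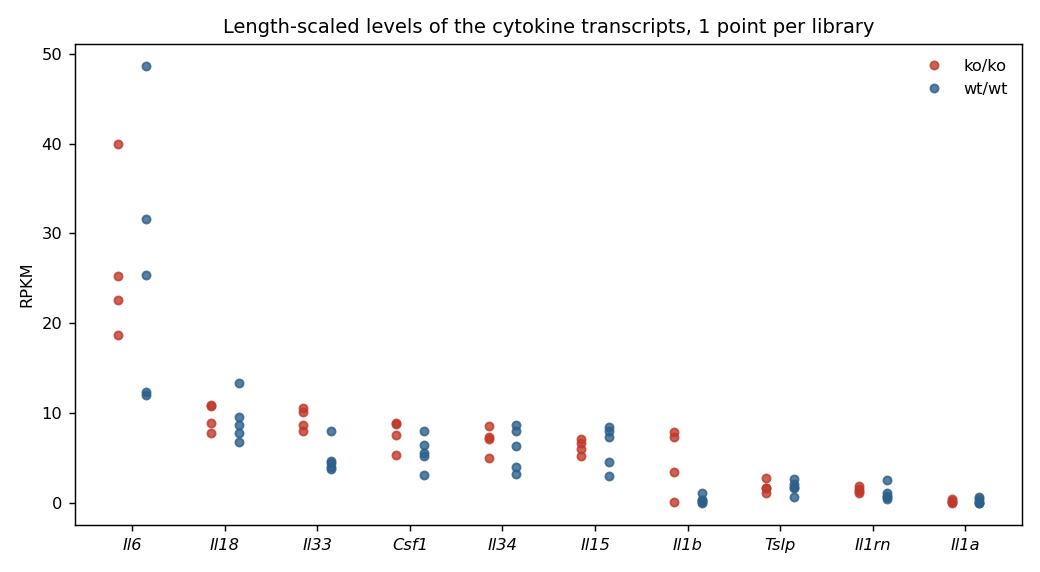
Length-scaled level (RPKM, linear axis) of the 10 cytokine transcripts, ordered by their mean over 9 libraries, with 1 point per library for ko/ko (red, left) and wt/wt (blue, right). Il6 spans 12.03 to 48.7 RPKM, while Il1a stays at or below 0.694 RPKM in each library.

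Between genotypes, edgeR's quasi-likelihood test, adjusted by Benjamini-Hochberg over 18435 genes, called 0 of the 10 genes. Il33 and Il1b had an unadjusted p under 0.05, both as higher in ko/ko. Over all genes tested 0.00542% were called and 15.3% had an unadjusted p under 0.05, 8.86% as higher and 6.42% as lower. DESeq2 called 1 of the 10, Il33, where it called 3.63% of genes, and limma voom with sample quality weights called 1, again Il33, where it called 9.77%. Log2 fold changes, ko/ko over wt/wt, were positive for 9 of the 10 genes, against 47.4% of all genes, but those of Tslp, Il15, Il6 and Il18 lay within 0.06 of 0 and turned sign under other settings or with 1 library left out. The median was 0.13, against -0.03 over all genes. None of the 10 had ko/ko and wt/wt values without overlap, a pattern seen in 6.25% of genes in either direction and in 3.51% as higher.

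**Figure D2:**
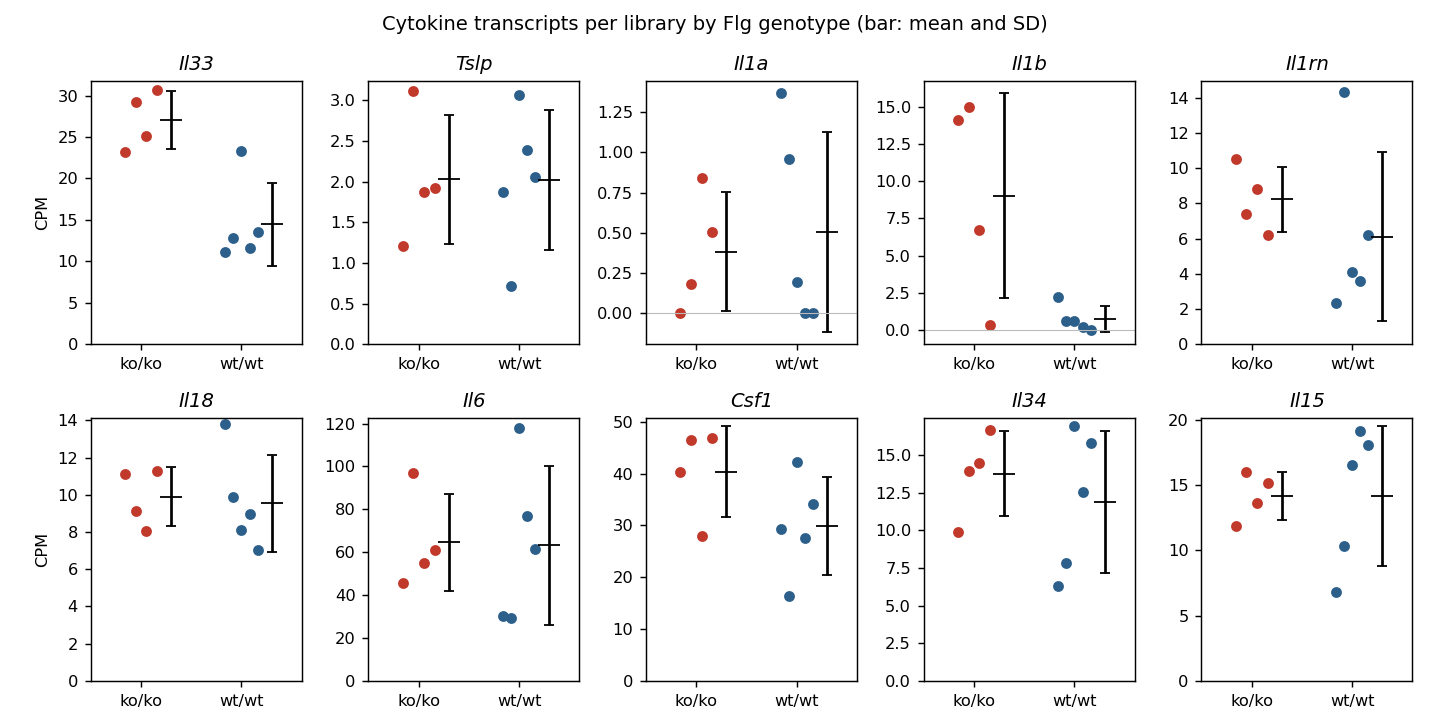
CPM of each cytokine transcript per library (linear axes, each panel with its own scale), ko/ko in red and wt/wt in blue; the black mark beside each group is its mean with SD. The ko/ko points of Il33 lie at 23.2 to 30.7 CPM and 4 of 5 wt/wt points at 11.1 to 13.6 CPM, while Il1b is high in 3 ko/ko libraries.

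Il33, the ligand of the receptor chain Il1rl1, was about 1.87 times as high in ko/ko, with an adjusted p that did not pass in edgeR. Il33 (ENSMUSG00000024810, a protein-coding gene on the plus strand of mm10 chromosome 19 at 29925114 to 29960718) had 23.2, 29.2, 25.2 and 30.7 CPM in ko/ko replicates 1 to 4. In wt/wt replicates 1 to 5 it had 11.1, 12.8, 23.3, 11.6 and 13.6 CPM. Of the ko/ko libraries, 3 lay above each wt/wt library, and ko/ko replicate 1 lay just under wt/wt replicate 3, so the groups overlapped by that pair alone. The means were 27.1 ± 3.48 CPM in ko/ko (SD, n = 4) and 14.5 ± 5.04 CPM in wt/wt (SD, n = 5). The log2 fold change was 0.90 (SE 0.23, 95% interval 0.41 to 1.40, edgeR adjusted p = 0.148), and 1.37% of tested genes had a smaller p. DESeq2 gave 0.91 (adjusted p = 0.0163) and weighted voom gave 0.84 (adjusted p = 0.0341). Without wt/wt replicate 3 edgeR gave 1.14 (adjusted p = 0.0635), and with 3 libraries rich in reads of the Gm10800 group of predicted genes removed (ko/ko replicates 1 and 4 and wt/wt replicate 1) it gave 0.83 (adjusted p = 0.302).

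Il33 is known from epithelial and stromal cells, and marker sums are given beside it for that reason. The 7 lymphatic endothelial markers had lower sums in ko/ko, at 225 to 329 CPM, against 413 to 894 CPM in wt/wt, with no overlap (exact permutation p = 0.0317 on the share of counts, adjusted p = 0.143 over 9 marker lists, two-sided). All 7 had negative log2 fold changes, 6 with an unadjusted p under 0.05, where 6.42% of all genes had such a p as lower. EdgeR called 0, DESeq2 3 and weighted voom 2 of the 7 as lower. Over all genes DESeq2 called 3.63% and weighted voom 9.77% in either direction. The marker lists were chosen with earlier results of these data known, so these p-values and counts are descriptive and not independent evidence of a difference. In the same permutation test the fibroblast and basal keratinocyte sums each gave an adjusted p of 0.968. So did the suprabasal keratinocyte, blood endothelial, and pericyte and smooth muscle sums. In wt/wt replicate 3, where Il33 was highest within its genotype, the fibroblast sum was 62203 CPM, the highest of the 9 libraries, and it was 59933 CPM in wt/wt replicate 5, where Il33 was 13.6 CPM. The part of these cell types in the Il33 difference was not tested.

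Tslp showed no difference that could be measured. Tslp (ENSMUSG00000024379, a protein-coding gene on the plus strand of mm10 chromosome 18 at 32815383 to 32819799) had 1.21, 3.12, 1.87 and 1.92 CPM in ko/ko replicates 1 to 4 and 1.88, 0.719, 3.07, 2.38 and 2.06 CPM in wt/wt replicates 1 to 5. EdgeR put the log2 fold change at 0.01 with a 95% interval of -0.95 to 0.96 (edgeR adjusted p = 0.994). That unadjusted interval spans 0.519 to 1.95 times, so differences within it in either direction are not excluded at 15 to 69 counts per library. It does not give the smallest difference that the adjusted test could call.

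Il1b, the inflammasome-cut cytokine that is known mainly from myeloid cells, was high in 3 of the 4 ko/ko libraries and did not pass edgeR's test. Il1b (ENSMUSG00000027398, a protein-coding gene on the minus strand of mm10 chromosome 2 at 129364570 to 129371139) had 14.1, 15.003, 6.69 and 0.303 CPM in ko/ko replicates 1 to 4. In wt/wt replicates 1 to 5 it had 2.23, 0.575, 0.634, 0.203 and 0 CPM. Replicates 1 to 3 of ko/ko exceeded each wt/wt library, while ko/ko replicate 4, with 6 counts, lay among the wt/wt libraries. The log2 fold change was 3.63 (SE 1.03, 95% interval 1.36 to 5.89, edgeR adjusted p = 0.174). The SD in ko/ko, 6.90 CPM, was close to the mean of 9.02 CPM (n = 4), against 0.729 ± 0.881 CPM in wt/wt (SD, n = 5). DESeq2 gave an adjusted p of 0.0802 and weighted voom one of 0.187. Without wt/wt replicate 1 edgeR gave 4.66 (adjusted p = 0.0820), and with the 3 Gm10800-rich libraries removed 4.92 (adjusted p = 0.111). Those 3 included ko/ko replicate 4, the lowest of ko/ko in Il1b, and wt/wt replicate 1, the highest of wt/wt. Its exons share 25 bases with the antisense gene Il1bos, which had 1 to 5 counts in ko/ko and 0 to 22 in wt/wt libraries.

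Myeloid marker sums were highest in the ko/ko libraries that were high in Il1b. The 18 myeloid markers summed to 524, 542, 335 and 132 CPM in ko/ko replicates 1 to 4 and to 238, 242, 176, 162 and 142 CPM in wt/wt replicates 1 to 5. The ko/ko libraries high in Il1b were thus those high in myeloid markers, and ko/ko replicate 4 was the lowest of all 9 libraries in these markers. Of 16 myeloid markers tested, 15 had positive log2 fold changes (median 2.55), 12 with an unadjusted p under 0.05. Among all genes tested, 47.4% had positive log2 fold changes (median -0.03) and 8.86% had such a p as higher. EdgeR's test called 0 of them, DESeq2 7 and weighted voom 3, where DESeq2 called 3.63% and weighted voom 9.77% of all genes. The exact permutation test on the myeloid share gave p = 0.0635 (adjusted p = 0.190 over 9 lists, two-sided). This list, too, was chosen with earlier results of these data known, so the p-value is descriptive. The list included Epcam, which epithelial cells also express, with a log2 fold change of -0.42 by DESeq2 (adjusted p = 0.540). Ptprc, the gene of the CD45 antigen used to remove leukocytes, had 7.15, 1.58, 1.87 and 0.908 CPM in ko/ko and 0.0507 to 0.863 CPM in wt/wt, and none of the 18 markers was at 0 over all libraries. The part of these cells in the Il1b difference was not tested.

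**Figure D3:**
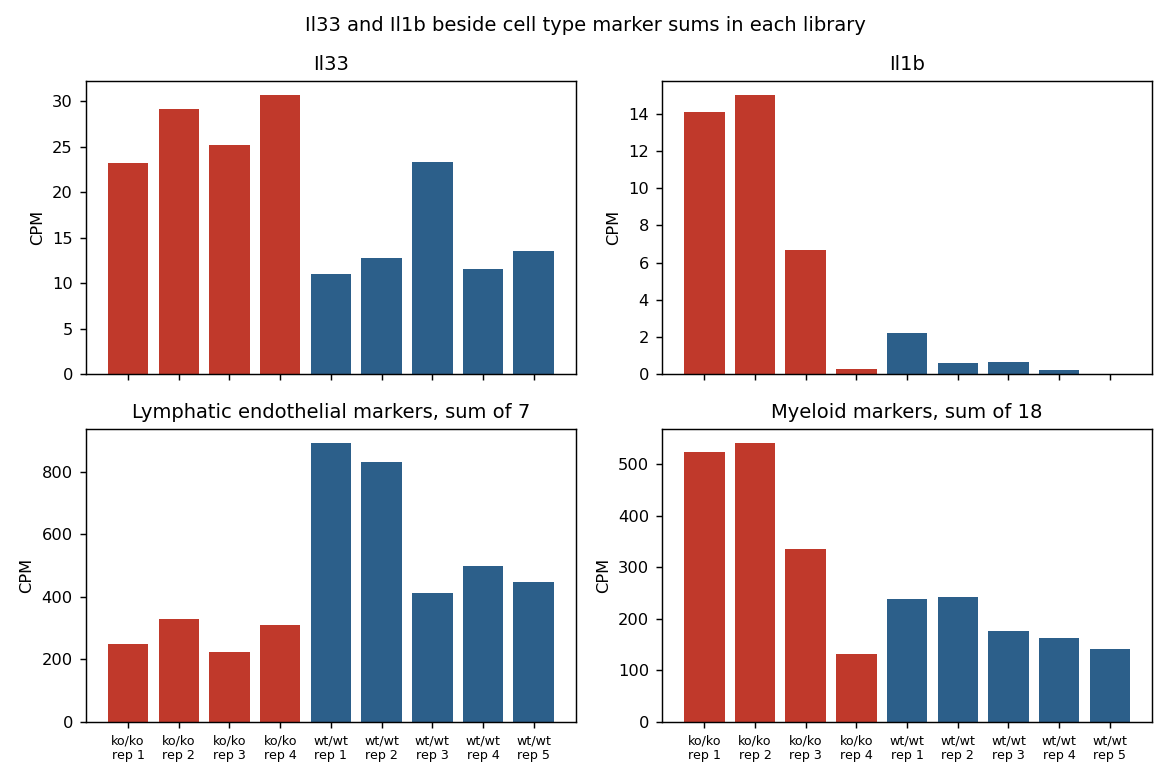
Il33 (top left) and Il1b (top right) in CPM per library, above the summed CPM of 7 lymphatic endothelial and 18 myeloid markers in the same libraries; ko/ko bars are red and wt/wt bars blue, all axes start at 0. Lymphatic sums are lower in each ko/ko library than in each wt/wt library, and myeloid sums are high in ko/ko replicates 1 to 3, the libraries with high Il1b.

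Il1a, the alarmin form of interleukin-1, was nearly absent. Il1a (ENSMUSG00000027399, a protein-coding gene on the minus strand of mm10 chromosome 2 at 129299610 to 129309972) had 0, 4, 18 and 10 counts in ko/ko replicates 1 to 4 and 27, 20, 4, 0 and 0 counts in wt/wt replicates 1 to 5. A count of 0 allows up to 0.173 CPM in ko/ko replicate 1, and 0.152 and 0.137 CPM in wt/wt replicates 4 and 5. Libraries of both genotypes held none, and the 95% interval of the log2 fold change ran from -2.99 to 2.24 around an estimate of -0.38 (edgeR adjusted p = 0.904). Weighted voom turned the sign, at 2.44 (adjusted p = 0.141). The exons share 222 bases with the antisense gene Gm14023, which had 16 to 37 counts in ko/ko and 14 to 30 in wt/wt libraries. Strand handling is not stated, so how reads from the shared bases were counted is not known.

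Il1rn, the receptor antagonist, lay above Il1a per length in 8 of 9 libraries and overlapped between genotypes. In wt/wt replicate 1 it had 0.422 RPKM, against 0.694 RPKM for Il1a. Il1rn (ENSMUSG00000026981, a protein-coding gene on the plus strand of mm10 chromosome 2 at 24336853 to 24351494) had 10.5, 7.37, 8.79 and 6.21 CPM in ko/ko replicates 1 to 4 and 2.33, 14.3, 4.09, 3.60 and 6.19 CPM in wt/wt replicates 1 to 5. Each of the ko/ko libraries exceeded 4 of the 5 wt/wt libraries and lay under wt/wt replicate 2, which was also the highest in basal keratinocyte markers. The log2 fold change was 0.43 (95% interval -0.57 to 1.43, edgeR adjusted p = 0.687). Without wt/wt replicate 2 it was 1.02 (adjusted p = 0.182). Per length, Il1b exceeded Il1rn 3.89, 5.91 and 2.21 times in ko/ko replicates 1 to 3 and 2.78 times in wt/wt replicate 1. In ko/ko replicate 4 and wt/wt replicates 2 to 5 the ratio was 0.142, 0.117, 0.449, 0.164 and 0.

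Il18, a caspase-1 substrate that keratinocytes hold as a precursor, averaged 9.90 ± 1.58 CPM in ko/ko (SD, n = 4) and 9.55 ± 2.60 CPM in wt/wt (SD, n = 5). Il18 (ENSMUSG00000039217, a protein-coding gene on the plus strand of mm10 chromosome 9 at 50554827 to 50581840) had 11.1, 9.13, 8.04 and 11.3 CPM in ko/ko replicates 1 to 4 and 13.8, 9.88, 8.09, 8.98 and 7.01 CPM in wt/wt replicates 1 to 5. The ko/ko values lay within the wt/wt range. Its log2 fold change was 0.05 (SE 0.23, edgeR adjusted p = 0.934), and its 95% interval of -0.45 to 0.55 allows 0.731 to 1.47 times.

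Il6, a cytokine of stromal cells and leukocytes that signals through Il6ra and Il6st, varied widely within both genotypes. Il6 (ENSMUSG00000025746, a protein-coding gene on the plus strand of mm10 chromosome 5 at 30013114 to 30019981) had 45.5, 97.0, 54.8 and 61.3 CPM in ko/ko replicates 1 to 4 and 30.0, 29.2, 118, 76.7 and 61.7 CPM in wt/wt replicates 1 to 5. Both the lowest and the highest library were wt/wt, and the means of 64.6 ± 22.5 CPM in ko/ko (SD, n = 4) and 63.2 ± 36.9 CPM in wt/wt (SD, n = 5) were close. EdgeR's estimate of the log2 fold change was 0.03 (95% interval -0.83 to 0.90, edgeR adjusted p = 0.975).

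Il15, which supports natural killer cells and memory and intraepithelial T cells, did not separate the genotypes either. Il15 (ENSMUSG00000031712, a protein-coding gene on the minus strand of mm10 chromosome 8 at 82331632 to 82403222) had 11.9, 16.04, 13.7 and 15.2 CPM in ko/ko replicates 1 to 4 and 6.85, 10.3, 16.5, 19.2 and 18.1 CPM in wt/wt replicates 1 to 5. For Il15 the log2 fold change was 0.00 (95% interval -0.62 to 0.62, edgeR adjusted p = 1.00). All 4 ko/ko values lay between the lower pair and the upper 3 of wt/wt. The 9 T cell markers summed to 31.9 to 42.1 CPM in ko/ko libraries and 22.5 to 38.9 CPM in wt/wt libraries (exact permutation p = 0.0317 on the share, adjusted p = 0.143 over 9 lists, two-sided). This list was likewise chosen with earlier results of these data known, so the p-value is descriptive. Only 4 of the 9 could be tested, among them Thy1, which fibroblasts also express, so the sum may not measure T cells alone. EdgeR and DESeq2 called 0 of the 4 and weighted voom 1, Cd3e, where it called 9.77% of all genes. The part of T cells in the Il15 values was not tested.

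The macrophage growth factors Csf1 and Il34 were present at similar levels per length, and neither differed past the threshold. Csf1 (ENSMUSG00000014599, a protein-coding gene on the minus strand of mm10 chromosome 3 at 107741048 to 107760469) had 40.3, 46.4, 28.0 and 46.8 CPM in ko/ko replicates 1 to 4 and 29.2, 16.4, 42.3, 27.6 and 34.1 CPM in wt/wt replicates 1 to 5. A pair of ko/ko libraries lay above each wt/wt library, and the log2 fold change was 0.43 (SE 0.25, 95% interval -0.12 to 0.98, edgeR adjusted p = 0.439).

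Il34, the ligand that keratinocytes make for Langerhans cells, gave a smaller difference. Il34 (ENSMUSG00000031750, a protein-coding gene on the minus strand of mm10 chromosome 8 at 110741829 to 110805924) had 9.92, 14.0, 14.5 and 16.7 CPM in ko/ko replicates 1 to 4 and 6.29, 7.82, 17.0, 12.5 and 15.8 CPM in wt/wt replicates 1 to 5. The log2 fold change was 0.21 (95% interval -0.44 to 0.87, edgeR adjusted p = 0.769). Per length, the ratio of Csf1 to Il34 was 0.716 to 1.51 in ko/ko libraries and 0.778 to 1.72 in wt/wt libraries, so neither ligand led throughout. The exons of Il34 share 22 and 75 bases with the antisense genes Gm15894 and Gm15895.

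Il6 and Il15 were lowest within ko/ko in replicates 1 and 3, and Il34 in replicates 1 and 2, while all 3 were lowest of the 9 libraries in wt/wt replicates 1 and 2. The fibroblast marker sum in ko/ko was 35426 and 41951 CPM in replicates 1 and 3, against 60583 and 61508 CPM in replicates 2 and 4. In wt/wt it was 32564 and 26863 CPM in replicates 1 and 2, against 56052 to 62203 CPM in replicates 3 to 5. The part of the fibroblast share in these values was not tested.

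**Figure D4:**
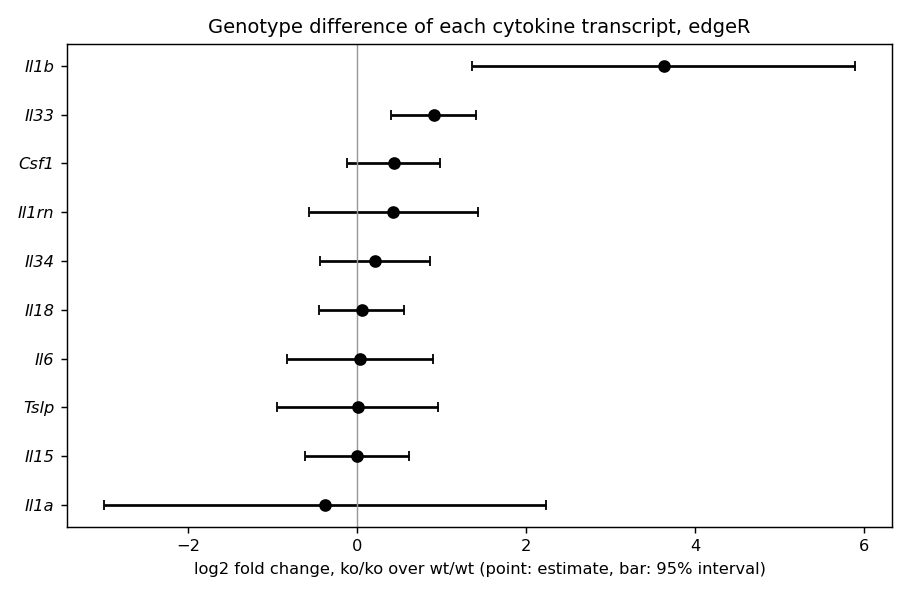
Log2 fold change of the 10 cytokine transcripts, ko/ko over wt/wt, by edgeR's quasi-likelihood test; points are estimates and bars unadjusted 95% intervals. The intervals of Il1b (1.36 to 5.89) and Il33 (0.41 to 1.40) lie above 0 and the other 8 include it.

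Of 18 receptors and binding proteins of these cytokines 15 were tested, and edgeR called 0. DESeq2 called 0 as well, and weighted voom called 2 as higher, Csf1r and Il2rg, and 1 as lower, Crlf2. Over all genes weighted voom called 9.77%. Il1r2, a decoy that binds interleukin-1 without signalling, was the most abundant at 66.2 RPKM in ko/ko and 39.8 RPKM in wt/wt. It was 19.7 and 14.2 CPM in wt/wt replicates 1 and 2 and 70.8 to 179 CPM in the other 7 libraries. Il6st, the shared gp130 chain, had 16.7 RPKM in ko/ko and 14.3 RPKM in wt/wt, and Il1r1, the signalling interleukin-1 receptor, had 8.56 RPKM in ko/ko and 6.89 RPKM in wt/wt.

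Of the receptor-side genes, 3 had an unadjusted p under 0.05 as higher and 1 as lower, out of 12 positive and 3 negative log2 fold changes (median 0.31). Of all genes tested, 8.86% had such a p as higher and 6.42% as lower. Il18bp, the soluble inhibitor of interleukin-18, averaged 3.73 ± 0.882 CPM in ko/ko (SD, n = 4) and 2.15 ± 0.425 CPM in wt/wt (SD, n = 5), a log2 fold change of 0.79 (edgeR adjusted p = 0.247). Il2rg, the common gamma chain used by the Il15 receptor, had 1.21 (adjusted p = 0.218), and Csf1r, the receptor of Csf1 and Il34 and itself one of the myeloid markers, had 1.31 (adjusted p = 0.316), both by edgeR. Crlf2, the TSLP receptor chain, averaged 2.73 ± 0.454 CPM in ko/ko (SD, n = 4) and 4.77 ± 1.54 CPM in wt/wt (SD, n = 5), a log2 fold change of -0.80 (edgeR adjusted p = 0.265). Its partner Il7r, too low to be tested, had 1, 1, 14 and 8 counts in ko/ko replicates 1 to 4 and 75, 5, 0, 0 and 0 in wt/wt replicates 1 to 5, so that a single wt/wt library held most of its counts. Il1rl1, the receptor of Il33, averaged 4.65 ± 2.87 CPM in ko/ko (SD, n = 4) and 2.39 ± 2.04 CPM in wt/wt (SD, n = 5), with a log2 fold change of 0.95 (edgeR adjusted p = 0.485).

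**Figure D5:**
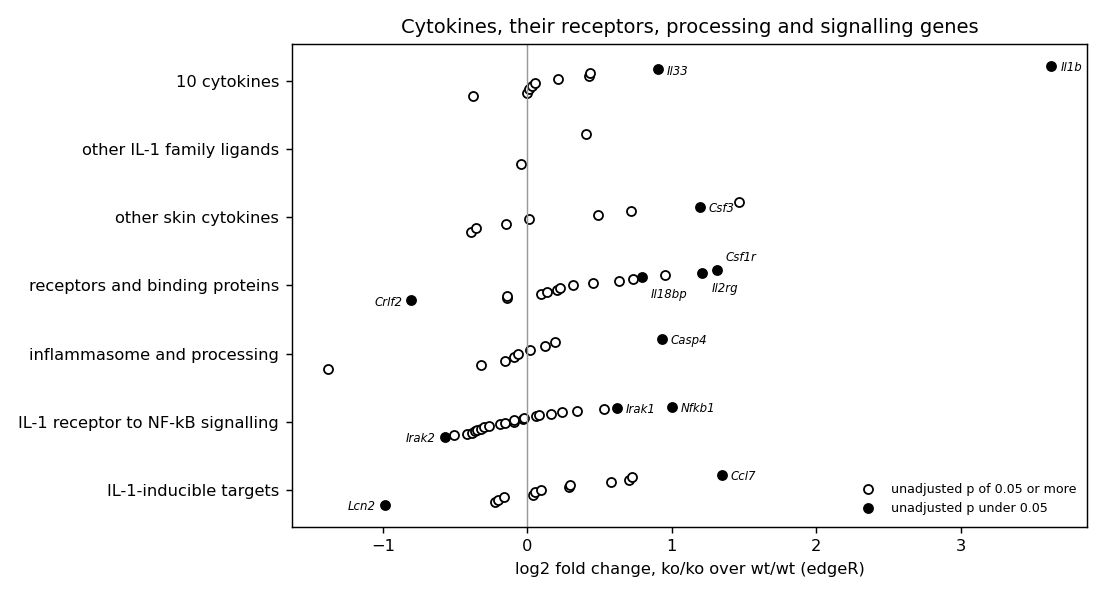
Log2 fold change, ko/ko over wt/wt, of each tested gene in 7 lists (rows), 1 point per gene, filled where the unadjusted edgeR p is under 0.05. Named genes have a filled point; none passes after adjustment over all genes.

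Other ligands of the interleukin-1 family were at the edge of detection. Of 5, Il1f5 (the interleukin-36 receptor antagonist) and Il1f9 (interleukin-36 gamma) could be tested, with log2 fold changes of 0.40 and -0.04. Il1f6, Il1f8 and Il1f10 summed to 0, 3 and 1 counts over the ko/ko libraries and to 1, 4 and 0 over the wt/wt libraries. No test called either of the 2, with 0 calls by edgeR, DESeq2 and weighted voom and 0 at an unadjusted p under 0.05. Over all genes DESeq2 called 3.63% and weighted voom 9.77%, and 15.3% had an unadjusted edgeR p under 0.05. Of 13 further skin cytokines 8 were tested and edgeR, DESeq2 and weighted voom each called 0. Csf3, the granulocyte growth factor, averaged 6.48 ± 3.53 CPM in ko/ko (SD, n = 4) and 2.83 ± 1.30 CPM in wt/wt (SD, n = 5) and was the single one with an unadjusted p under 0.05 (log2 fold change 1.19, edgeR adjusted p = 0.263). Lif, a gp130 cytokine, and Il7, the lymphocyte growth factor, had 5.76 and 5.19 RPKM in ko/ko and 7.56 and 5.15 RPKM in wt/wt.

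Of 14 inflammasome and processing genes, 9 were tested, with 4 positive and 5 negative log2 fold changes (median -0.06). EdgeR and DESeq2 called 0 and weighted voom called 1, Casp4, a caspase of the non-canonical inflammasome. Of all genes tested weighted voom called 9.77%, and 15.3% had an unadjusted edgeR p under 0.05. Casp4 averaged 39.1 ± 13.1 CPM in ko/ko (SD, n = 4) and 20.5 ± 11.03 CPM in wt/wt (SD, n = 5), a log2 fold change of 0.93 (edgeR adjusted p = 0.287), and it was the single gene of the list with an unadjusted p under 0.05. Casp1, which cuts the Il1b and Il18 precursors, had 0.12 (adjusted p = 0.907) and Gsdmd, which forms the pore of release, had 0.02 (adjusted p = 0.966), both by edgeR. Nlrp3, an inflammasome sensor, was too low to be tested, at 21, 0, 5 and 2 counts in ko/ko replicates 1 to 4 and 3, 1, 0, 0 and 0 in wt/wt replicates 1 to 5, so that ko/ko replicate 1 held most of them. Capn2, a calpain, was the most abundant of the list per length, at 29.5 RPKM in ko/ko and 32.9 RPKM in wt/wt.

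All 23 genes from the interleukin-1 receptor to NF-kappaB were tested, with 8 positive and 15 negative log2 fold changes (median -0.09). EdgeR and DESeq2 called 0, and weighted voom called 2 as higher, Irak1 and Nfkb1, where it called 9.77% of all genes. Irak1, a receptor-proximal kinase, had 0.62 (SE 0.21, edgeR adjusted p = 0.217), and Irak2, its relative, had -0.57 (SE 0.21, edgeR adjusted p = 0.244). Nfkb1, the p105 precursor subunit, had 565, 316, 374 and 396 CPM in ko/ko replicates 1 to 4 and 391, 301, 187, 82.6 and 69.0 CPM in wt/wt replicates 1 to 5 (log2 fold change 1.00, edgeR adjusted p = 0.323). These 3 of the 23 had an unadjusted p under 0.05, 2 as higher and 1 as lower, against 15.3% of all genes tested. Nfkbia, the feedback inhibitor IkappaB-alpha, had 1465 RPKM in ko/ko and 1387 RPKM in wt/wt. Nfkbiz, a nuclear IkappaB protein that acts with NF-kappaB on secondary target genes, had 186 RPKM in ko/ko and 249 RPKM in wt/wt. The adaptor Myd88 had 125 RPKM in ko/ko and 143 RPKM in wt/wt.

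Of 15 genes known to be induced by interleukin-1, 13 were tested, 9 positive and 4 negative (median 0.09), and edgeR, DESeq2 and weighted voom each called 0. Over all genes 47.4% were positive, and DESeq2 called 3.63% and weighted voom 9.77%. An unadjusted edgeR p under 0.05 was found for 1 target as higher, Ccl7, and 1 as lower, Lcn2. The shares over all genes were 8.86% as higher and 6.42% as lower. Cxcl1, a neutrophil chemokine, had 641 RPKM in ko/ko and 618 RPKM in wt/wt, and Icam1, a leukocyte adhesion ligand, had 317 RPKM in ko/ko and 369 RPKM in wt/wt. Ccl7, a monocyte chemokine, averaged 213 ± 121 CPM in ko/ko (SD, n = 4) and 83.9 ± 58.5 CPM in wt/wt (SD, n = 5), a log2 fold change of 1.35 (edgeR adjusted p = 0.248). Lcn2, an iron-scavenging antimicrobial protein, had 2.71, 5.29, 9.87 and 13.4 CPM in ko/ko replicates 1 to 4 and 13.9 to 20.5 CPM in wt/wt. The groups of Lcn2 did not overlap, a pattern seen in 6.25% of genes, and its log2 fold change was -0.99 (edgeR adjusted p = 0.257).

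The genes whose log2 CPM followed each cytokine most closely over the 9 libraries are given as a description, with Pearson's r. These libraries differed in genotype and in cell type marker sums, and r includes those differences. Among 18435 genes such high values arise readily with 9 points. For Il33 they were Gm44250 (0.96) and Rab13 (0.95), for Tslp Cd7 (0.97) and Tmem229b (0.96), and for Il1a Gm45094 (0.98) and Cdk5rap2 (0.96). For Il1b they were Fcho2 (0.98) and Clec4a3 (0.98), a lectin receptor of myeloid cells. For Il1rn they were C530005A16Rik (0.97) and Cdca2 (0.96), and for Il18 Rnf8 (0.96) and Itga2b (0.93). For Il6 they were Abca6 (0.96) and Gm14109 (0.96), for Il15 Pxmp4 (0.99) and Gdf10 (0.99), for Csf1 Fkbp2 (0.96) and Xbp1 (0.95), and for Il34 Thbs4 (0.98) and Prss12 (0.98).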

How the data were processed

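The authors deposited 1 table of raw read counts per gene, 1 column per sample, with the exon length of each gene. The tools GSNAP and featureCounts 1.6.2 and the build mm10 are named in the submitters' processing notes, and the table's name gives Ensembl release 87. Handling of strand, multi-mapped reads and duplicates is not given in the sources used here. Per the labels' protocols, polyadenylated RNA was amplified over 13 cycles without mention of molecular identifiers, so floors cover counting error only.

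Of 49763 rows, 92 spike-in rows were left out. Symbols came from GENCODE M21 by gene identifier (49326 of 49671 rows); positions are those of the deposited table. Counts were tested in R 4.3.3 with edgeR 4.0.16 (filterByExpr, TMM, glmQLFit with robust=TRUE, two-sided test, Benjamini-Hochberg over 18435 genes, threshold 0.05). CPM and RPKM use library totals times TMM factors, and log2 CPM a prior count of 2. Each SE was the size of the log2 fold change divided by the root of its F statistic, and the script was checked on simulated counts. Marker shares were compared by exact permutation over 126 arrangements, smallest p 0.00794. Alternatives used DESeq2 1.42.0, limma 3.58.1, other scalings and filters, and left-out libraries.

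Members and gene lists were chosen with earlier results of these data known, and the motifs after their values were seen. The named genes are the members, list genes with an unadjusted p under 0.05, the 3 most abundant per length in each list, and the 2 genes most like each member. A gene that this rule names is not reported here. Outside that rule, Il1rl1, Il7r, Casp1, Nlrp3, Ptprc, Epcam, Cd3e and Thy1 were named after their values were seen. Genotype came from the labels; replicate numbers follow accession order.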

Additional observations from a re-analysis of the deposited data

Results flagged for a closer look

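A single library stood apart from its group in 2 of 38 groups tested for an outlying value, where about 1 in 20, or 1.9, arises by chance. Il33 was 4.55 log2 CPM in wt/wt replicate 3, where the remaining wt/wt libraries lay at 3.48 to 3.77 log2 CPM. In wt/wt replicate 2 the 10 basal keratinocyte markers made up 0.454% of all counts, where the other wt/wt libraries had 0.204% to 0.246%.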

How the results depend on the processing

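Il33, Il1b, Il1rn, Csf1 and Il34 kept a positive log2 fold change under each of 19 alternatives: 0.83 to 1.14 for Il33 (adjusted p 0.0163 to 0.326), 3.25 to 4.92 for Il1b (0.0802 to 0.349), 0.20 to 1.02 for Il1rn, 0.22 to 0.59 for Csf1 and 0.06 to 0.38 for Il34. The call of 0 of the 10 genes held except with DESeq2 and with weighted voom, where Il33 made it 1; leaving out 1 library gave 0 to 0. Genes called higher over the whole table, 1 by edgeR, were 4 scaled by library size alone, 26 with no filter, 438 with DESeq2, 1217 with weighted voom, 7 with the 3 Gm10800-rich libraries removed, and 0 to 12 with 1 library left out, 12 without ko/ko replicate 4 and 0 without each of the other 8. Genes called lower, 0 by edgeR, were 2 with no filter, 192 with DESeq2, 584 with weighted voom and 0 to 0 with 1 library left out. Signs turned for Tslp, Il6, Il15 and Il18, all near 0, and for Il1a, at -0.38: with no filter Tslp (-0.025), Il6 (-0.0072) and Il15 (-0.044); with weighted voom Tslp (-0.19), Il1a (2.44), Il6 (-0.29) and Il15 (-0.18); without the Gm10800-rich libraries Il1a (0.81) and Il15 (-0.11). With 1 library left out, Tslp ran from -0.27 to 0.21, Il1a from -1.10 to 0.015, Il18 from -0.041 to 0.23, Il6 from -0.23 to 0.39 and Il15 from -0.17 to 0.14. Il1a fell under the filter in 6 alternatives, and DESeq2 gave it no adjusted p. The causes were not tested. The median log2 fold change of all genes was 0.08 scaled by library size alone and 0.14 with no filter, against -0.03. No paired analysis was possible because the replicate numbers follow accession order. Low counts limit Il1a and Tslp.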
